A study of Bos taurus with 24 samples.

Results

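CLDN5, VCAM1, ACTA2 and S100A4 were followed through ovarian follicles of cattle. They are 4 of the 9026 genes that could be fitted, and 7 of the array's 17418 features carry 1 of these symbols in the platform's annotation: 1 feature each for CLDN5, VCAM1 and S100A4, and 4 features for ACTA2. The genes were chosen by their symbols with earlier results of these data known, including how they varied between follicles, so their levels are given below as a description and their differences between follicles support nothing on their own. The label under which they were grouped, endothelial and stromal markers, was compared with longer marker lists.

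Total RNA came from the largest follicle of each of 16 heifers, between 8 and 12 mm across, and each of 24 two-colour arrays set 1 follicle labelled with Cy5 against another labelled with Cy3. Each follicle was on 3 arrays, 8 of the follicles with Cy5 on 2 of them and the other 8 with Cy5 on 1. The labels give no treatment, cycle stage, breed or dominance status and name the follicles only by an identifier (8, 26, 27, 31, 33, 46, 861, C10, C12, C13, C22, C26, C32, C35, H893 and J980), so there are no groups to compare. The sources used here do not say whether the wall was separated from the fluid.

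A growing follicle is an avascular layer of granulosa cells inside a basal lamina, surrounded by the theca, which holds the blood vessels, steroid-making cells, fibroblasts and contractile cells. CLDN5 forms the tight junction strands of endothelium. VCAM1 is a cell surface protein that captures leukocytes through their integrins and is induced on endothelium by cytokines through NF-kB. ACTA2 is the alpha actin of smooth muscle, pericytes and myofibroblasts, and S100A4 is a small calcium-binding protein widely used as a fibroblast marker but also made by leukocytes. INHBA, the gene against which they were set, encodes the beta A chain shared by inhibin A and activin A and is a product of granulosa cells. In RNA of a whole tissue, fewer cells of a type and less RNA per cell cannot be told apart.

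A level here is a follicle's log2 value relative to the mean of the 16 follicles, estimated from its 3 array ratios together with all the others, and its standard error (SE) comes from the disagreement between arrays. It holds no spread between animals, since each heifer gave 1 follicle, and the number of arrays limits the precision. The direction of the deposited ratios is not stated: Cy5 over Cy3 is likely from the order of the channels and names, and with the inverse every level below would change sign while every correlation and F test would stay. Ratios hold no absolute level, so a marker's presence or absence in a follicle could not be read, nor could the level of 1 gene be set against that of another.

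Over all genes the median SD of a gene's levels was 0.17 and the median SE of a level 0.13. Follicle J980 stood apart from the rest: of the 1061 genes that differed between follicles (adjusted p under 0.05), 421 were lowest in it and 91 highest. The arrays also fall into 2 sets. Of the 32767 ways to divide the follicles, exactly 1 is bridged by as few as 2 arrays, C10 against 26 and C26 against 33. It puts 26, 27, 8, C22, C26, C32, C35 and J980 on one side, and 31, 33, 46, 861, C10, C12, C13 and H893 on the other. A level compared across the sides therefore rests on those 2 arrays, so relations between genes are given over all follicles, within the sides (each side centred on its own mean) and without J980.

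CLDN5 spread over a wider range than the other 3 genes. From lowest to highest its log2 level was -1.10 in H893, -0.95 in 861, -0.76 in 46, -0.75 in C12, -0.64 in 31, -0.29 in C13, -0.13 in 33 and 0.15 in C35. It went on to 0.16 in 27, 0.19 in 8, 0.20 in C26, 0.35 in C10, 0.39 in C22, 0.68 in C32, 1.06 in 26 and 1.44 in J980. Follicles of the side with J980 took 8 of the 9 highest places, and C10 alone of the other side lay among them. J980 exceeded H893 by 2.54 with an SE of 0.42 for that difference, and 54 genes of the 9026 had a larger SD of levels than the 0.72 of CLDN5.

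No neighbours in the order of CLDN5 levels were more than 2 SEs apart. Of the 120 pairs of follicles, 66 differed by more than 2 SEs. J980 was more than 2 SEs above 14 follicles and H893 more than 2 SEs below 11. The SE of a level was 0.21 to 0.40. The least certain was that of follicle 27, which rests on 1 array for this gene, because the spot has no value on the arrays of C35 against 27 and J980 against 27 and the fit dropped them. Among single array ratios the lowest was -1.62 for 861 over C10 and the highest 1.34 for J980 over 8, while 26 over J980 gave -0.29.

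The side of the loop held 58.4% of the variance of CLDN5 levels. The mean of the side with J980 was 0.53 and that of the other side -0.53, a difference of 1.07 with an SE of 0.28. For the other genes that difference was 0.36 with an SE of 0.44 for VCAM1, 0.02 with an SE of 0.12 for ACTA2, 0.30 with an SE of 0.20 for S100A4 and -0.62 with an SE of 0.20 for INHBA. Across all genes the median share of variance between the sides was 13.7%, and 542 of the 9026 genes had a larger share than CLDN5. The sources used here do not say whether the follicles of the sides were handled apart.

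VCAM1 was highest in J980, though not by more than 2 SEs over the next follicle. Its log2 level was -0.80 in C12, -0.38 in 46, -0.33 in 31, -0.32 in 861, -0.27 in 8, -0.17 in H893, -0.08 in C32 and -0.07 in C13. The upper part of the order was -0.06 in C35, 0.09 in 26, 0.13 in C26, 0.21 in 33, 0.21 in 27, 0.32 in C22, 0.43 in C10 and 1.10 in J980. The SEs, from 0.34 to 0.38, were close to the SD of the levels, which was 0.43. Neighbours did not differ by more than 2 SEs, and only 11 of 120 pairs did: J980 lay that far above 9 follicles and C12 that far below 3, and each of the 11 pairs involves J980 or C12.

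The high level of VCAM1 in J980 was visible on each of its 3 arrays. The ratio was 1.23 for J980 over 8, 1.10 for J980 over 27 and -0.93 for 26 over J980. The lowest follicle, C12, was likewise the lower one on each of its arrays, with -0.21 for C12 over H893, -1.19 for C12 over 46 and 0.65 for 33 over C12.

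S100A4 covered a wider range than ACTA2, the other stromal gene. Its log2 level was -0.75 in 861, -0.69 in H893, -0.46 in C12, -0.22 in C22, -0.19 in 46, -0.16 in J980, -0.07 in 33 and 0.00 in 8. It was 0.05 in C32, 0.14 in C26, 0.14 in 31, 0.17 in C35, 0.30 in C13, 0.51 in 27, 0.52 in C10 and 0.72 in 26. J980, at the end of the order for CLDN5 and VCAM1, lay near the middle here. With SEs of 0.15 to 0.17, 54 of 120 pairs differed by more than 2 SEs although no neighbours did: 26 lay above 12 follicles, and 861 below 12. The lowest array ratio was -1.43 for 861 over C10 and the highest 0.83 for 26 over J980, and the range of levels was 1.46 with an SE of 0.25.

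ACTA2, averaged over its 4 features, moved least. The log2 level was -0.36 in J980, -0.26 in C13, -0.23 in H893, -0.10 in 861, -0.04 in C35, 0.01 in C10, 0.01 in 8 and 0.05 in 26. It was 0.08 in 27, 0.10 in 31, 0.10 in 46, 0.10 in C12, 0.11 in C26, 0.11 in C22, 0.12 in C32 and 0.20 in 33. The pattern is 3 low follicles and 13 that lie close together. J980 was more than 2 SEs below 12 others, and 33, the highest, was more than 2 SEs above 4. The SD of the levels was 0.16, and 54.3% of genes had a larger one. By single features the SD was 0.11 to 0.47. Feature 10_2_23 alone had a range of 1.67, wider than the 1.46 of S100A4.

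**Figure D1:**
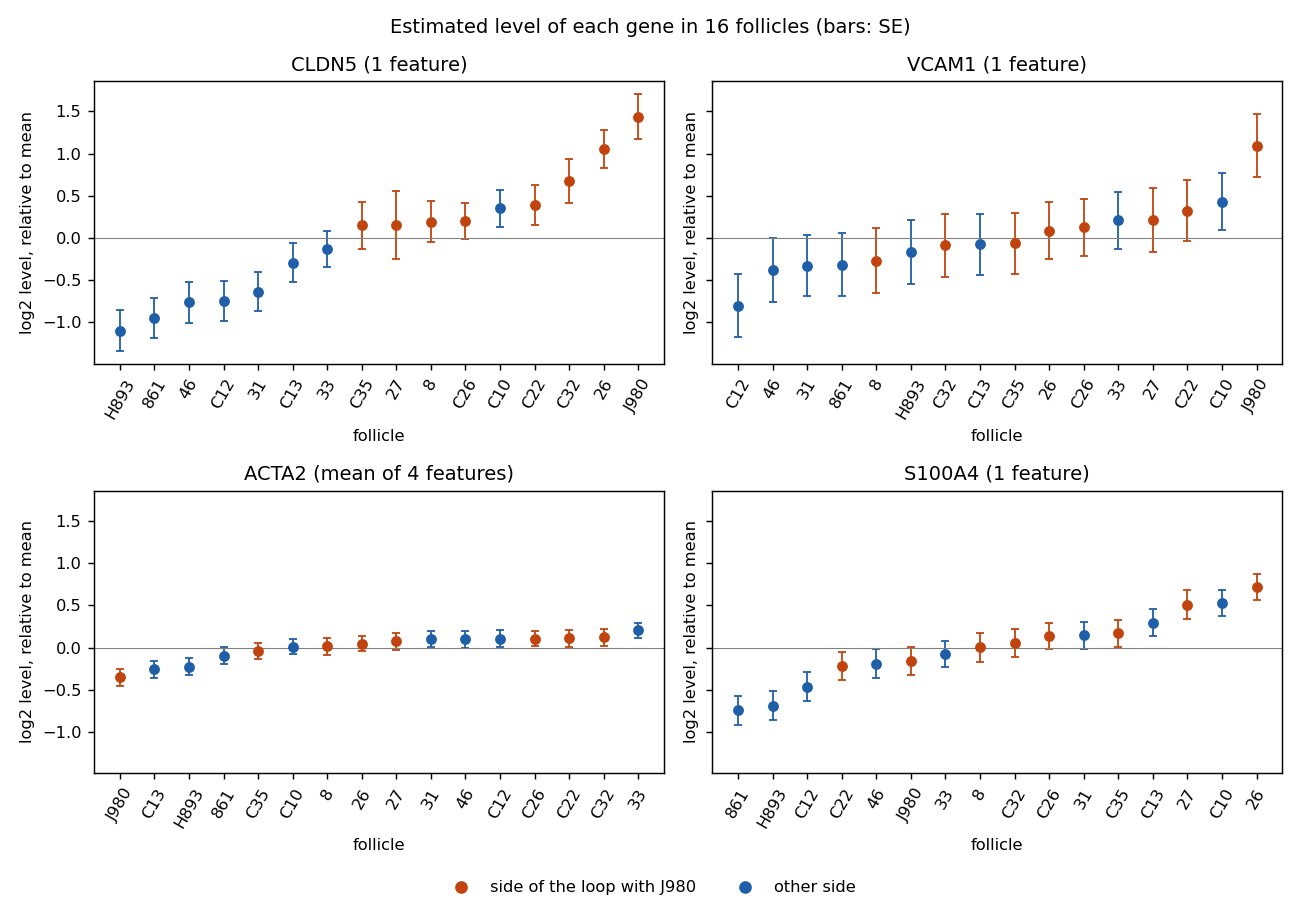
Log2 level of CLDN5, VCAM1, ACTA2 and S100A4 (vertical axes, relative to the mean of the 16 follicles) in each follicle, ordered from low to high for each gene; bars are SEs from array error and colours mark the side of the loop. CLDN5 runs from -1.10 in H893 to 1.44 in J980, VCAM1 is highest in J980 (1.10) and has wide bars, ACTA2 is low in J980, C13 and H893 and lies between -0.10 and 0.20 elsewhere, and S100A4 runs from -0.75 in 861 to 0.72 in 26.

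In the F test over all follicles (limma's moderated variances, Benjamini-Hochberg adjustment over 9026 genes), 11.8% of genes passed an adjusted p of 0.05. S100A4 passed with an adjusted p of 0.0142 and ACTA2 with 0.0410, and CLDN5 with 0.0558 and VCAM1 with 0.303 did not. Nothing is read from these counts, as the test was known when the genes were chosen. The ACTA2 call was lost in 20 of the 24 fits that left out 1 array, and the S100A4 call was lost without moderation (adjusted p = 0.0698). CLDN5 passed with limma's own approximate F, which treats its 2 missing arrays as present (adjusted p = 0.0274).

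The 4 ACTA2 features did not follow one another. Feature 10_2_23 had the widest range of log2 levels, from -1.16 in J980, -0.94 in C13 and -0.39 in H893 to 0.41 in C26 and 0.51 in 33. Feature 2_7_6 ran from -0.50 in H893 and -0.33 in J980 to 0.27 in 8 and 0.36 in 33. Feature 15_2_4 ran from -0.40 in C35 to 0.36 in 46, with J980 among the high follicles at 0.25. Feature 5_2_24 stayed between -0.18 in J980 and 0.17 in C22. The SDs of levels were 0.47, 0.24, 0.21 and 0.11 in that order, so the average over features mostly follows feature 10_2_23, with which it had an r of 0.924.

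Follicles J980 and C13 show the disagreement. J980 was at -1.16 with an SE of 0.23 for feature 10_2_23 and at 0.25 with an SE of 0.18 for feature 15_2_4. The array ratios of feature 15_2_4 had a median of -0.27, and its levels rest on the dye effect, common to all arrays, that the fit took out. Before that, J980 over 8 gave -0.08, J980 over 27 gave -0.06 and 26 over J980 gave -0.42 for this feature. C13 was the second lowest for feature 10_2_23 (-0.94 with an SE of 0.22), and for feature 2_7_6 it lay above the mean (0.17 with an SE of 0.12). The arrays of 31 and of 33 over C13 gave 1.75 and 1.81 for feature 10_2_23, against 0.04 and 0.17 for feature 2_7_6. Among all 16358 features 12.2% differed between follicles, and of the 4 ACTA2 features 10_2_23 (adjusted p = 0.0112) and 2_7_6 (adjusted p = 0.0221) did by limma's moderated variances, while 15_2_4 had 0.307 and 5_2_24 had 0.325.

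Pairwise, the levels of the ACTA2 features had r = 0.343 for 10_2_23 with 5_2_24, 0.320 for 10_2_23 with 2_7_6, -0.00371 for 15_2_4 with 2_7_6, -0.0171 for 10_2_23 with 15_2_4, -0.308 for 2_7_6 with 5_2_24 and -0.555 for 15_2_4 with 5_2_24. The median was -0.0104. These are correlations over 16 follicles that share arrays, given as a description. Poor agreement between features of 1 symbol was common on this array: over the 2664 genes with at least 2 features the median of such medians was 0.0796, and 39.5% were at or below ACTA2. Among the 297 of these genes that differed between follicles it was 0.411, and 14.1% were at or below ACTA2. Among the 1590 genes whose levels varied no more than those of ACTA2 it was -0.00460, with 49.3% at or below ACTA2. The features' sequences were not used here, so which transcript each one reads, and whether it is shared with another actin, was not tested.

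**Figure D2:**
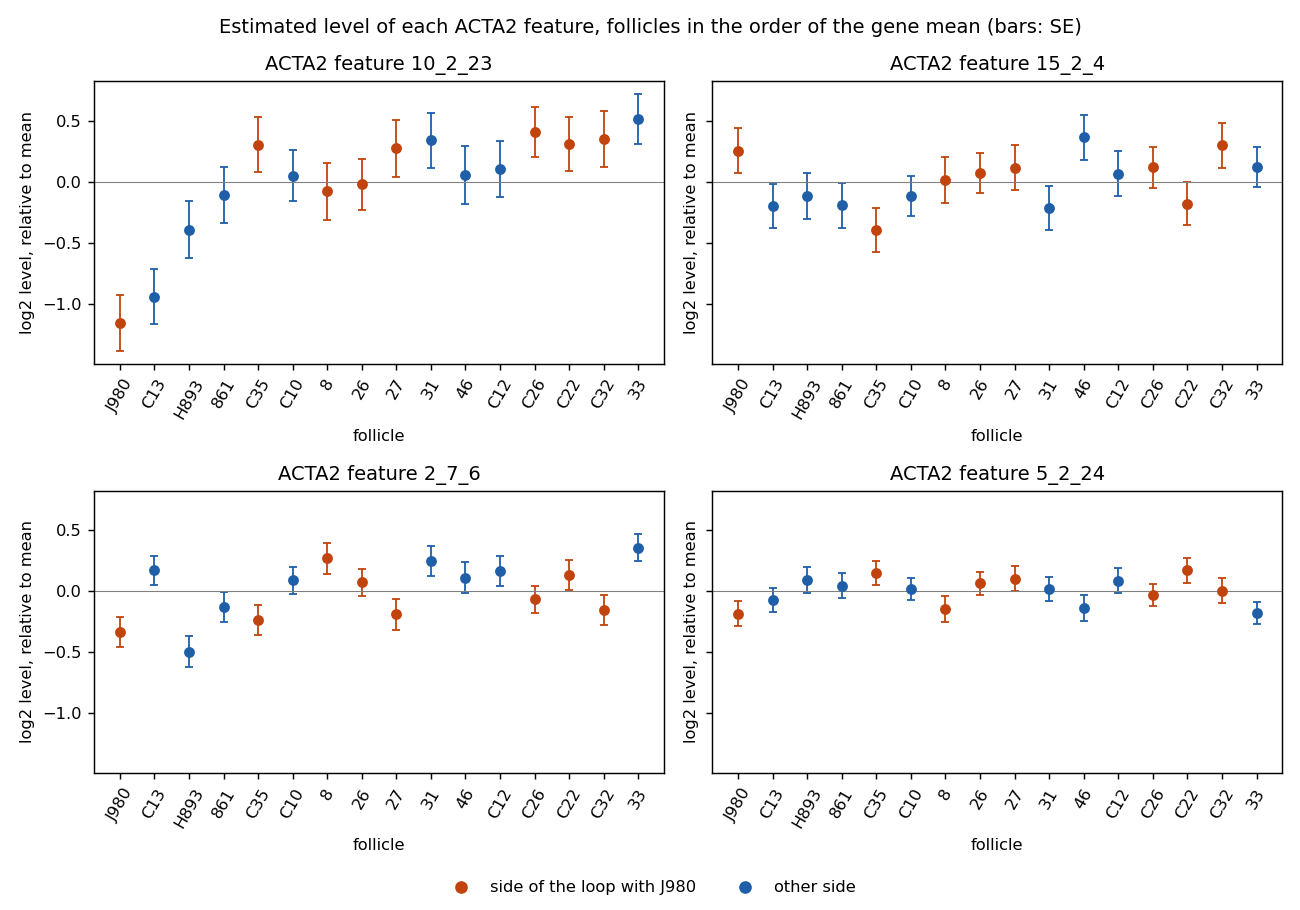
Log2 level of each of the 4 ACTA2 features (vertical axes, relative to the mean of the 16 follicles), with the follicles in the same order in each panel, that of the average over features; bars are SEs and colours mark the side of the loop. Feature 10_2_23 falls to -1.16 in J980 and -0.94 in C13, whereas 15_2_4 has J980 at 0.25 and 5_2_24 stays between -0.18 and 0.17.

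Feature 10_2_23 was also the one with the highest r to the mean levels of contractile and cytoskeletal genes. With the mean level of 17 measured smooth muscle and pericyte genes, r was 0.767 for 10_2_23, 0.331 for 2_7_6, 0.242 for 5_2_24 and 0.136 for 15_2_4. With the mean of 21 actins and their partners it was 0.818 for 10_2_23, 0.477 for 2_7_6, 0.114 for 5_2_24 and 0.120 for 15_2_4. Single genes of these lists did not all go with 10_2_23. FLNA had an r of 0.716 with 2_7_6 and 0.412 with 10_2_23, and TAGLN 0.671 with 15_2_4 and 0.463 with 10_2_23. By contrast, MYLK had 0.0151 with 2_7_6 and 0.772 with 10_2_23, and MYL9 0.0801 with 15_2_4 and 0.732 with 10_2_23. The gene whose levels were most like those of 10_2_23 was PGAM2, the muscle form of phosphoglycerate mutase, with r = 0.962. PGAM2 ranged from -1.60 in J980 to 0.58 in 33.

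Each gene was then related to INHBA and to the mean level of 37 measured extracellular matrix genes (of 46 listed). That makes 8 relations over 16 follicles, each with a two-sided permutation test of 100000 resamples and adjusted together by Benjamini-Hochberg. It treats the 16 levels of a gene as interchangeable, which is only approximate, as follicles that met on an array share its error, and the genes were chosen with earlier results known.

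INHBA itself was dominated by 1 follicle. Its log2 level was -2.69 in J980, 12.2 SEs under the next, 26 at -0.55, and rose to 0.80 in C12 and 1.04 in 861. CLDN5 was lower where INHBA was higher (r = -0.737, permutation p = 0.00029, adjusted 0.00116; rho = -0.726, permutation p = 0.00189, adjusted 0.00756). Without J980 and 861, the follicles farthest from the INHBA median, r was -0.580, and without J980 alone -0.655. Within the sides of the loop it was -0.742 (permutation p = 0.00063, adjusted 0.00296), with -0.879 on the side of J980 and -0.599 on the other, and without J980 as well -0.654.

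VCAM1 was related to INHBA in the same direction (r = -0.849, permutation p = 0.00016, adjusted 0.00116; rho = -0.747, permutation p = 0.00136, adjusted 0.00756). J980 holds the extreme of both genes, yet r was -0.718 without J980 and 861 and -0.699 without J980. Within the sides it was -0.820 (permutation p = 0.00074, adjusted 0.00296), and -0.657 within the sides without J980. On the side of J980 it moved from -0.909 to -0.445 when that follicle was left out, with 7 follicles remaining. Over all follicles, both relations depend on the bridging array of C26 against 33. Without it r was -0.413 for CLDN5 and -0.424 for VCAM1, neither past the threshold (permutation adjusted p = 0.177 for each). Without the bridging array of C10 against 26, r was -0.340 for VCAM1, not past the threshold, while CLDN5 with INHBA still passed.

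S100A4 and ACTA2 showed no such relation over all follicles (r = -0.212, permutation p = 0.432, adjusted 0.494, and r = 0.407, permutation p = 0.123, adjusted 0.197). Without the level of J980 these became -0.612 for S100A4, past the threshold (permutation adjusted p = 0.0304), and -0.283 for ACTA2, of the opposite sign. Among all genes, 0.399% had an r with INHBA at least as far from 0 as that of VCAM1. The share was 2.63% for CLDN5, 31.8% for ACTA2 and 62.7% for S100A4.

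**Figure D3:**
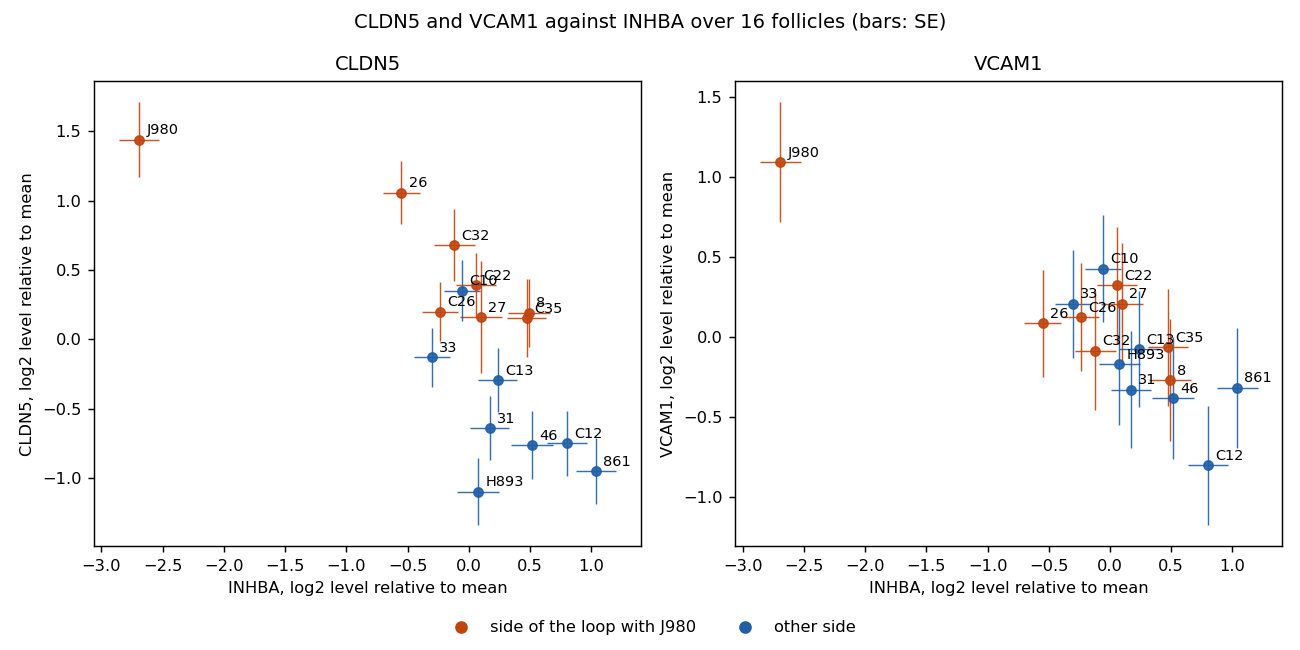
Log2 level of CLDN5 (left) and VCAM1 (right) against that of INHBA, each relative to the mean of the 16 follicles; 1 point per follicle, bars are SEs, and colours mark the side of the loop. Both genes are highest in J980, where INHBA is at -2.69, and the other 15 follicles slope the same way (r = -0.655 and -0.699).

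S100A4 had the highest r of the members with the matrix mean. Pearson's r was 0.734 (permutation p = 0.00125, adjusted 0.00333). By ranks, rho was 0.668 (permutation p = 0.00568, adjusted 0.0151). It stayed at 0.729 without C26 and C10, the follicles farthest from the matrix median, at 0.736 without J980, and at 0.713 within the sides of the loop (permutation p = 0.00438, adjusted 0.0117). Follicles 861 and H893 were lowest in both measures, with matrix means of -0.22, and 26 and C10 were among the 3 highest in both, with matrix means of 0.17 and 0.19. Of the 37 matrix genes, 33 had a positive r with S100A4.

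ACTA2 had a looser relation to the matrix mean. Its r was 0.577 (permutation p = 0.0188, adjusted 0.0377), while rho was 0.421 and did not pass (permutation p = 0.106, adjusted 0.212). Without C26 and C10 r was 0.601, and within the sides 0.582 (permutation p = 0.0246, adjusted 0.0491), or 0.497 without J980 as well. On the side of J980 r moved from 0.484 to -0.101 when that follicle was left out, with 7 follicles remaining. On the other side it was 0.658. The 4 follicles with the lowest ACTA2 levels were also the 4 with the lowest matrix means, and the remaining 12 lay between -0.04 and 0.20 over the whole range of matrix means. No single ACTA2 feature passed on its own: r was 0.526 for 10_2_23, 0.280 for 2_7_6, 0.251 for 15_2_4 and -0.0328 for 5_2_24. The matrix mean had r = 0.324 with CLDN5 (permutation p = 0.221, adjusted 0.294) and 0.130 with VCAM1 (permutation p = 0.64, adjusted 0.64). Without the level of J980 that with CLDN5 was 0.565, past the threshold (permutation adjusted p = 0.0469). Within the sides CLDN5 with the matrix mean had r = 0.208 (permutation p = 0.458, adjusted 0.611), and 0.499 without J980 as well. It was -0.376 on the side of J980, or 0.0691 without that follicle, and 0.696 on the other side.

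**Figure D4:**
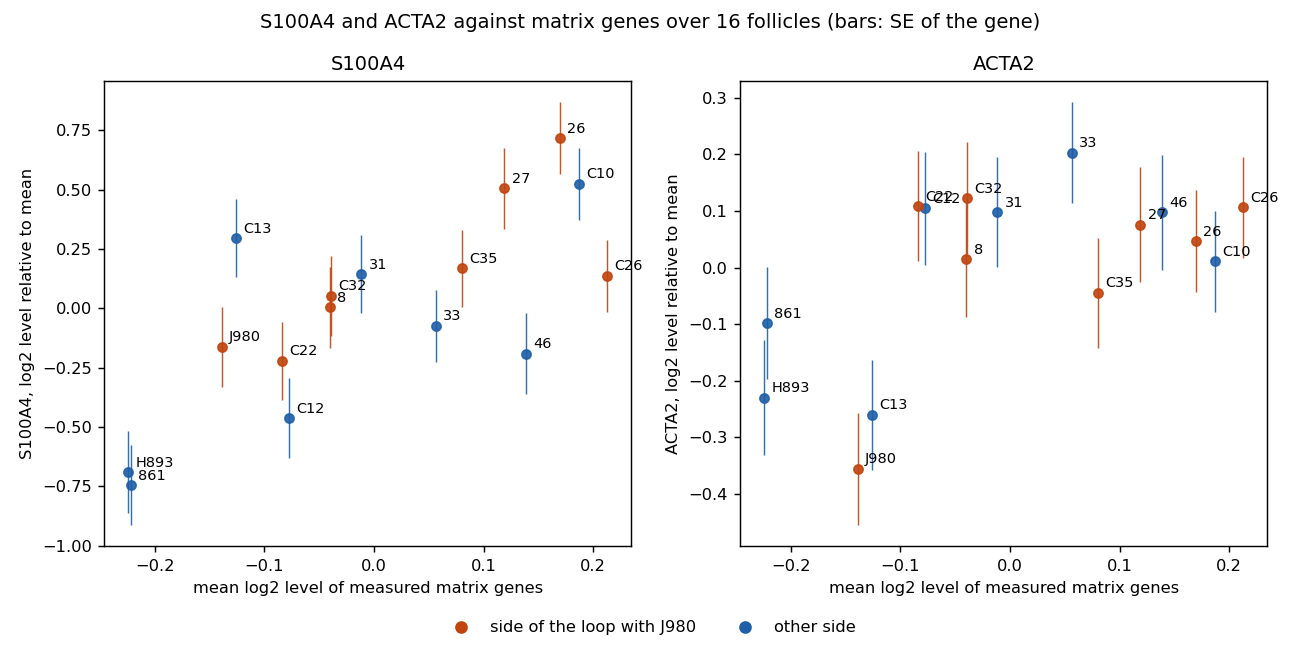
Log2 level of S100A4 (left) and of ACTA2 averaged over features (right) against the mean log2 level of 37 matrix genes; 1 point per follicle, vertical bars are SEs of the gene and colours mark the side of the loop. S100A4 rises from -0.75 and -0.69 in 861 and H893 along the whole matrix axis (r = 0.734), while the 4 lowest follicles for ACTA2 sit at the lowest matrix means and the others lie between -0.04 and 0.20 (r = 0.577).

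The identifiers of 7 follicles begin with C, and the labels do not say what that means. Within these 7 and within the other 9, r between CLDN5 and INHBA was -0.802 and -0.787, and between VCAM1 and INHBA -0.785 and -0.939. Between S100A4 and the matrix mean r was 0.536 and 0.827, and between ACTA2 and the matrix mean 0.250 and 0.742. Of the other 4 relations, ACTA2 with INHBA (-0.188 and 0.534) and VCAM1 with the matrix mean (0.461 and -0.0512) differed in sign between the sets, and CLDN5 with the matrix mean (0.354 and 0.307) and S100A4 with INHBA (-0.534 and -0.206) did not.

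For each member, the 2 matrix genes with the r farthest from 0 were MFAP4 (0.779) and COL14A1 (0.767) for CLDN5, COL14A1 (0.595) and NID2 (-0.585) for VCAM1, FN1 (0.763) and MGP (0.674) for ACTA2, and COL6A2 (0.796) and MFAP4 (0.702) for S100A4. MFAP4 is a microfibril-associated protein of elastic fibres, COL14A1 a collagen on the surface of fibrils, NID2 a basement membrane protein, FN1 fibronectin, MGP an inhibitor of calcification and COL6A2 a chain of the beaded collagen VI. FN1 differed between follicles by limma's moderated F test (adjusted p = 0.00127), as did NID2 (0.00926) and MGP (0.0180), and COL6A2 (0.0925), COL14A1 (0.105) and MFAP4 (0.178) did not. In the whole list 17 of 37 genes did, against 11.8% of all genes.

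The marker lists were drawn up without the 4 genes, and each is described by its count of genes that differed between follicles and by the r of its mean level with each member. Some lists share genes, so their counts and means are not independent. Among these, DCN and LUM are in the matrix and fibroblast lists, and S100A10 in the fibroblast and S100 lists. VIM is in the smooth muscle and fibroblast lists, and SELE and SELP in the endothelial and leukocyte adhesion lists. Of 34 listed endothelial genes 23 were measured, and CDH5, KDR, FLT1, TEK and NOS3 were among those that were not. Of the 23 measured genes 2 differed, PECAM1 and PROCR, an 8.70% share beside 11.8% of all genes, and 1 did without moderation. The endothelial mean had an r of 0.659 with CLDN5, 0.568 with S100A4, 0.495 with VCAM1 and 0.208 with ACTA2, and within the sides of the loop these were 0.516, 0.477, 0.362 and 0.205. Single endothelial genes were split: 15 of 23 had a positive r with CLDN5. THBD, the thrombin receptor thrombomodulin, had 0.711, and ENG, a coreceptor for the TGF-beta family, had -0.703, and within the sides these fell to 0.296 and -0.226. PECAM1, the junctional adhesion protein of endothelium, ran from 2.38 in C26 to -1.24 in H893 and had an r of 0.481 with CLDN5, or 0.160 within the sides.

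None of the 14 measured claudins and tight junction genes differed between follicles by limma's moderated F test, beside 11.8% of all genes. By that test 0 had an unadjusted p under 0.05. With limma's own approximate F the count was also 0, and 1 passed without moderation. TJP3, a scaffold protein of tight junctions, had an r of -0.679 with CLDN5, and F11R, a junctional adhesion molecule, had 0.663. Within the sides of the loop these were -0.0379 and 0.324. The SD of levels was 0.72 for CLDN5, and the median SD in this list was 0.14.

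For VCAM1, 2 of 17 genes of leukocyte adhesion and NF-kB targets differed, ICAM1 and CCL2, the same 11.8% share as among all genes. The count was 1 in 15 of the 24 fits that left out 1 array. The list mean had r = 0.220 with VCAM1. EZR, which anchors membrane proteins to actin, had r = -0.764, and SELE, the endothelial selectin, had 0.389. Of 23 measured leukocyte genes 9 differed, a 39.1% share beside 11.8% of all genes, and 4 did without moderation and 5 with no dye term. Their mean had an r of 0.668 with CLDN5, 0.467 with VCAM1, 0.417 with S100A4 and 0.231 with ACTA2, and 0.407, 0.287, 0.259 and 0.243 within the sides. CXCR4, a chemokine receptor, had an r of 0.571 with VCAM1 and a level of 2.06 in J980, its highest. AIF1, a macrophage protein, had an r of 0.559 with VCAM1. The leukocyte mean ran from -0.32 in H893 to 0.49 in C26, and its part in the levels of VCAM1, CLDN5 and S100A4 was not tested.

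Over all follicles ACTA2, averaged over its features, stood closest to its own families. None of 17 smooth muscle and pericyte genes differed between follicles by limma's moderated F test, beside 11.8% of all genes. By that test 6 had an unadjusted p under 0.05. The count was 0 with limma's own approximate F, 2 with arrays scaled and 3 over features with values on all 24 arrays. Their mean had an r of 0.787 with ACTA2, and 0.813 within the sides. Without J980 it was 0.666, beside 0.673 for the fibroblast and stroma mean. Over all follicles MYLK, the kinase of myosin light chain, had an r of 0.696 with ACTA2, and MYL9, a light chain itself, had 0.694. Of 21 actins and actin partners 4 differed (ACTA1, ACTB, GSN and TPM3), a 19.0% share beside 11.8% of all genes. The count was 2 without J980 and 8 over features with values on all 24 arrays. The mean of the actin list had an r with ACTA2 of 0.787 without J980 and 0.852 over all follicles. ACTB, cytoplasmic beta actin, had an r of 0.762 and ran from -0.81 in J980 to 0.48 in C26. ACTA1, the actin of skeletal muscle, had 0.750 and ran from -0.43 in J980 to 0.44 in C12. The smooth muscle and actin means had an r of -0.202 and -0.0384 with CLDN5 and of -0.345 and -0.263 with VCAM1. Without J980 these changed sign, to 0.178 and 0.338 with CLDN5 and 0.125 and 0.163 with VCAM1.

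Of 15 fibroblast and stroma genes 7 differed (TCF21, S100A10, LGALS1, CD44, PI16, DCN and SPARCL1), a 46.7% share beside 11.8% of all genes, and 2 did without moderation. Their mean had an r of 0.614 with S100A4, 0.526 with ACTA2, 0.446 with CLDN5 and 0.291 with VCAM1. PI16, a secreted protein of fibroblasts, had 0.598 with S100A4, and FAP, a protease of activated fibroblasts, had -0.547 and itself did not differ between follicles by limma's moderated F test (adjusted p = 0.761). In the S100 family and its annexin partners 4 of 14 differed (S100A2, S100A10, ANXA1 and ANXA2), a 28.6% share. That count was 2 in 16 of the 24 fits that left out 1 array, 2 without J980, and 1 with a single feature per gene. The nearest to S100A4 were ANXA11 (-0.700) and S100A13 (0.613), neither of which passed.

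Granulosa and cell cycle genes ran against CLDN5 and VCAM1. The mean of 14 granulosa cell genes, INHBA among them, had an r of -0.663 with CLDN5, -0.801 with VCAM1, -0.387 with S100A4 and 0.305 with ACTA2. Without J980 these were -0.490, -0.636, -0.612 and -0.151. FST, which encodes follistatin, the binding protein of activin, ran from -2.05 in J980 to 1.11 in 861. Of 25 cell cycle genes 15 differed, where 11.8% of all genes did. The count was 9 without the array of 33 over C13, 9 without J980 and 8 without moderation. Their mean had an r of -0.710 with both CLDN5 and VCAM1, and -0.691 and -0.651 within the sides. Of 9 theca cell genes 7 differed, a 77.8% share, and 4 did without moderation or with no dye term. Their mean had r between -0.218 and 0.113 with the 4 members. Of 7 erythrocyte genes 1 differed, ALAS2, a 14.3% share beside 11.8% of all genes. The erythrocyte mean had r = -0.576 with CLDN5, or -0.404 within the sides. The part of the balance of cell types in the relations to INHBA was not tested.

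**Figure D5:**
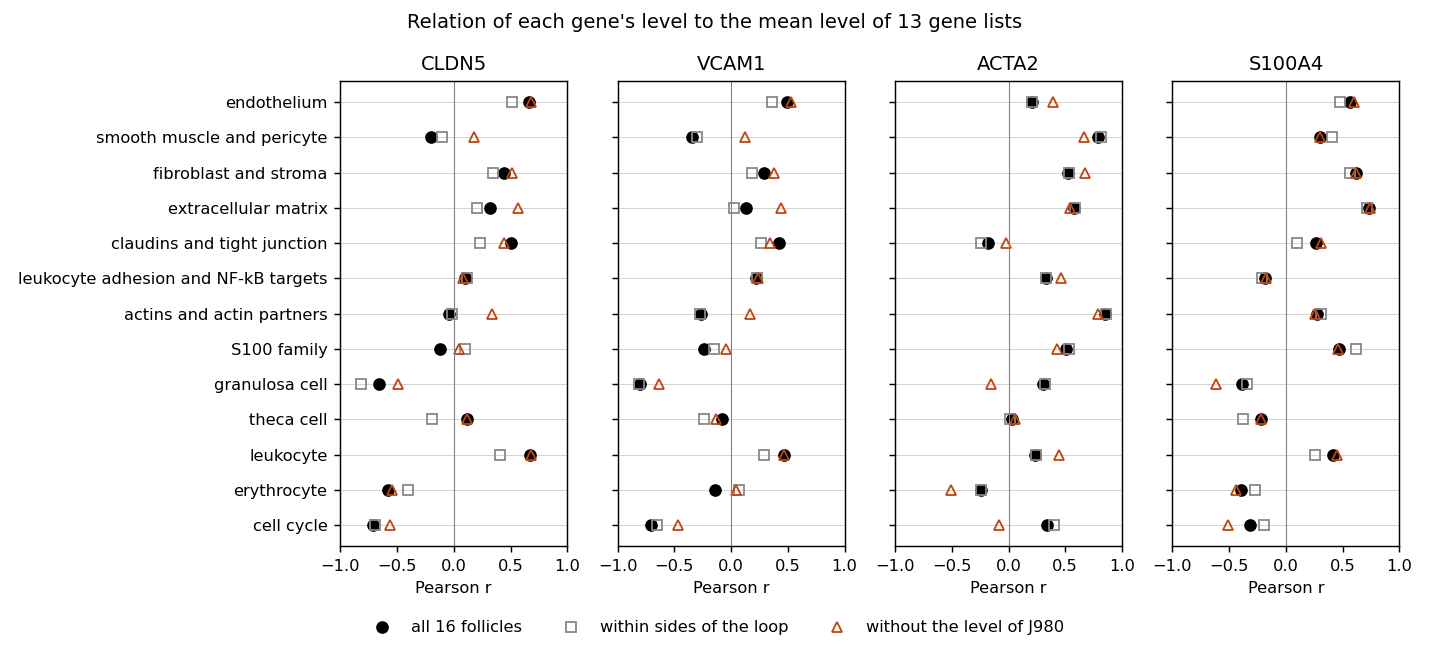
Pearson r (horizontal axes) between the level of each member and the mean level of each of 13 gene lists (rows) over 16 follicles; filled circles use all follicles, open squares the levels within the sides of the loop, and triangles leave out J980. The granulosa and cell cycle lists lie below 0 for CLDN5 and VCAM1, the actin and smooth muscle lists lie far above 0 for ACTA2 (0.852 and 0.787), and the matrix list does so for S100A4 (0.734).

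Between the members, CLDN5 and VCAM1 had r = 0.753 over all follicles, 0.725 within the sides and 0.630 without J980. CLDN5 and S100A4 had 0.576, 0.485 and 0.750, so which pair was most alike turned with J980, and VCAM1 and S100A4 had 0.325, 0.194 and 0.549. ACTA2 was near or below 0 with both CLDN5 (-0.0721) and VCAM1 (-0.347), and these were 0.363 and 0.112 without J980, where ACTA2 is lowest and the other 2 are highest. ACTA2 and S100A4 had 0.215. These values also moved with single arrays: without the bridging array of C10 against 26, r was 0.312 for CLDN5 with VCAM1 and 0.233 for CLDN5 with S100A4, and without that of C13 over 46 it was 0.00919 for VCAM1 with S100A4. No single order of the follicles was common to the 4 genes.

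The genes whose levels were most like those of each member were found among all others by Pearson's r over the 16 follicles. For CLDN5 they were LIFR (0.917), B3GNT9 (0.898), CCSER1 (0.887), VAMP5 (0.887) and C8A (0.884), and at the other end PRDX4 (-0.937) and FAF1 (-0.928). LIFR is the receptor of leukaemia inhibitory factor, and PRDX4 is a peroxiredoxin of the endoplasmic reticulum. Within the sides of the loop LIFR had 0.786 and PRDX4 -0.860. The median r away from 0, regardless of sign, was 0.369 over all genes for CLDN5, against 0.292 for VCAM1, 0.240 for S100A4 and 0.238 for ACTA2.

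For VCAM1 the nearest were FEZ1 (0.893), POLL (0.868), VOPP1 (0.843), RWDD2A (0.828) and ANK3 (0.823), with HSPA9 (-0.879) and LMAN2 (-0.867) at the other end. FEZ1, POLL, VOPP1 and RWDD2A were all highest in J980, and HSPA9, a mitochondrial chaperone, and LMAN2, a lectin of the secretory pathway, were lowest there. For ACTA2 they were LOC781494 (0.904), UBXN1 (0.880), PLOD1 (0.878), BCL6 (0.874) and RHEB (0.858), with UQCC5 (-0.839) and PDCL (-0.819) opposite. PLOD1 hydroxylates lysines of collagen, and BCL6 is a transcriptional repressor. For S100A4 they were WEE1 (0.850), CSNK1E (0.823), LIMK2 (0.811), C16H1orf21 (0.807) and COL6A2 (0.796), with MRPL50 (-0.830) and LRP4 (-0.821) opposite. WEE1 is a kinase that holds back mitosis, and LIMK2 phosphorylates the actin-severing protein cofilin. Each of these lists holds the extremes of 9025 correlations over 16 follicles.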

How the data were processed

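RNA of 16 follicles was measured on 24 two-colour arrays. Per the labels, an Axon GenePix 4000B scanner and the program GenePix Pro 4.0.1.12 were used. How the authors corrected background, filtered spots and normalized within arrays is not given in these sources. The deposited values are log ratios, taken as log2: the largest absolute value, 6.32, lies above 4.82, the maximum for 16-bit intensities on a log10 scale, while natural logs cannot be told apart from log2. Deposited array medians lay between -0.0139 and 0.00639. An array held 16094 to 17028 values, and signal over background is unknown, since no intensities were used. There were 0 unused columns of per-sample values.

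Symbols came from the platform's annotation, which can be old. It gave 1 symbol to 13605 features, several to 829 and none to 2984; the last 2 kinds stayed unnamed. Arrays were centred on their medians, features with values on at least 20 arrays were kept, and features of 1 symbol were averaged. Follicle effects (1 for Cy5, -1 for Cy3) and a common dye term were fitted with limma 3.58.1 in R 4.3.3, leaving 8 residual degrees of freedom. The F statistic used limma's moderated variances and each gene's own missing arrays, since limma's own F takes the complete design for genes with missing arrays. Correlations were computed with numpy 2.4.6 in Python 3.11.15, figures with matplotlib 3.10.9, and the fit was tested on simulated data.

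The members and the gene lists were chosen with earlier results of these data known. The rule named the 4 members and their features, INHBA, for each member the 5 genes of highest and 2 of lowest r, and in each list set beside a member the 2 genes with r farthest from 0. Genes that are listed as differing, PGAM2, FLNA, TAGLN, PECAM1 and FST fall outside the rule and were named after their values were seen. The alternatives concerned the arrays and follicles included, centring, scaling, dye term, moderation, missing values, the feature per gene and the matrix score. Limma's own F and the levels within the sides of the loop were added after the data were examined. No sequences or coordinates are given, because no genome of the array's build was used.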

Additional observations from a re-analysis of the deposited data

How the results depend on the processing

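The count of 1061 genes that differed between follicles was 608 with no dye term, 589 if variances were not moderated and 664 without J980 and its 3 arrays, and from 684 to 1175 when 1 array was left out (684 without 33 replicate 2 and 688 without 31 replicate 2). The cause was not tested. Leaving out 1 array or 1 follicle's level, r ranged from -0.824 to -0.413 for CLDN5 with INHBA, from -0.876 to -0.340 for VCAM1 with INHBA, from -0.283 to 0.530 for ACTA2 with INHBA (negative without J980), from -0.612 to 0.0990 for S100A4 with INHBA (positive without either bridging array: 0.00211 and 0.0990), from 0.174 to 0.565 for CLDN5 with the matrix mean, from -0.0129 to 0.441 for VCAM1 with the matrix mean (negative without C10 replicate 1, and -0.00538 without C12 replicate 1), from 0.468 to 0.645 for ACTA2 with the matrix mean, where 13 of 40 fell below the threshold, and from 0.648 to 0.817 for S100A4 with the matrix mean, where none did.

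ACTA2 with the matrix mean also lost its call with arrays scaled (0.489), with all estimable features (0.546), with the matrix median (0.465) and with matrix genes scaled to one SD (0.536), and by feature was 0.526 for 10_2_23, 0.251 for 15_2_4, 0.280 for 2_7_6 and -0.0328 for 5_2_24. ACTA2 with INHBA turned to -0.263 without J980 and its arrays and to -0.398 with feature 15_2_4 alone. Without J980 and its arrays, CLDN5 with the matrix mean (0.596) and S100A4 with INHBA (-0.618) passed, and VCAM1 with ACTA2 had an r of 0.141 (0.0559 without C26 replicate 1 and -0.482 without 33 replicate 2). CLDN5 had an adjusted p of 0.0482 by limma's moderated F test with arrays scaled, and of 0.0126, 0.0285 and 0.0329 without H893 replicate 1, 861 replicate 1 and 31 replicate 2, and VCAM1 of 0.0438 without C13 replicate 1. Leaving out 1 array, r between CLDN5 and VCAM1 ranged from 0.312 to 0.876. CLDN5 could not be fitted over features with values on all 24 arrays or without 27 replicate 1. The fit uses the pairing of follicles on each array. No pairing between arrays could be made, because the labels give the arrays no replicate numbers that pair them. The replicate numbers used above only count the arrays on which a follicle had Cy5. They are not repeats of a comparison: 33 replicate 1 was 33 over C12, and 33 replicate 2 was 33 over C13.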

Other observations

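Some genes of the lists stood near a member of another list; they were named after their values were seen, and the values are descriptions over 16 follicles. VIM, the intermediate filament of mesenchymal cells, had an r of 0.805 with CLDN5 (0.674 within the sides of the loop) and -0.242 with ACTA2, though its levels ran only from -0.23 in 31 to 0.34 in J980 and did not pass limma's moderated F test (adjusted p = 0.160). TCF21, a transcription factor of stromal progenitors, had an r of 0.768 with VCAM1 (0.755 within the sides) and ran from -0.57 in C12 to 0.72 in 33. AIF1 had 0.841 with CLDN5 (0.610 within the sides), above its r with VCAM1. ANXA5, a phospholipid-binding annexin, had 0.761 with ACTA2 (0.760 within the sides) and was lowest in C13, at -0.70. PROCR, the endothelial receptor of protein C, differed between follicles, from 0.76 in C13 to -0.69 in 861, and had r = -0.0806 with CLDN5.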
